A study of Mus musculus with 3 samples.

Results

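Expression of 10 genes of the integrated stress response, Trib3, Ddit3, Chac1, Asns, Ppp1r15a, Atf3, Atf4, Atf5, Sesn2 and Cebpb, was compared between parental LLC/luc cells and their bone-derived sub-lines BM 1st and BM 2nd. The genes are Atf4 and its stress-induced targets and regulators, 10 of the 19057 genes with a named probe. They were taken by gene symbol, and the set was chosen on results of these same arrays, the low BM 2nd over parental ratio of Trib3 and Ppp1r15a among them, so all values of the 10 genes are given as a description without a test.

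LLC/luc is the Lewis lung carcinoma line of C57BL/6 mice carrying luciferase. LLC/luc BM 1st cells were cultured from a tibial lesion after intracardiac injection of the parental cells into male C57BL/6 mice, and LLC/luc BM 2nd cells came from a bone lesion of mice injected with BM 1st cells. Each sub-line is a culture grown out of host bone, so host cells may have been carried along. RNA of each line was read on a single mouse whole-genome bead array (Illumina), 3 arrays in all, with no replicate and therefore no error or p-value for any difference. The cell type label calls all 3 cultures osteotropic, and they are told apart by the subtype label. By the labels all 3 cultures were kept in DMEM with 10% serum, whereas the methods of the study give a lower serum content for this line.

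The deposited values are linear intensities that had been made equal in distribution between arrays, with background light left in. Background was set on each array at the 95th percentile of the 1492 probes for receptors of smell and pheromones, which these cells should not express, at 109.5 for the parental line, 109.9 for BM 1st and 107 for BM 2nd. Each comparison took the genes that exceeded background on 1 or both of its 2 arrays, and a gene past a log2 ratio of 1 or -1, a 2-fold difference, was called higher or lower. Since background light was kept, the ratio of a dim gene understates its difference. Of 7 epithelial markers, Krt8, Krt18 and Cdh1 were above background on all 3 arrays, Cdh1 narrowly at 121, 116 and 125. Krt7 was above it in the parental line only, and Krt19, Epcam and Cldn4 on no array. None of 4 lung epithelial markers was above it on any array. Of 9 leukocyte markers, 2 exceeded background in the parental, 6 in the BM 1st and 5 in the BM 2nd line, with summed intensities of 1083, 2737 and 1531. Past the threshold were Lyz2, Laptm5 and Fcer1g, higher in BM 1st over parental cells at 3.76, 2.03 and 1.42, beside 2.05% of all genes. Lyz2 and Laptm5 were also past it in BM 2nd over parental cells, at 2.20 and 1.03, but another Lyz2 probe gave 0.93. None of the 3 was above background in the parental line. Set against that background, they were 9.84-fold, 3.35-fold and 2.33-fold higher in BM 1st cells. In BM 2nd cells Lyz2 was then 3.33-fold and Laptm5 1.68-fold higher, so Laptm5 did not reach 2-fold. Itgam and Tyrobp were below background on all 3 arrays. The summed intensity of 10 stromal markers was 3256 in the parental, 10650.1 in the BM 1st and 18370.2 in the BM 2nd line. Of the 8 compared, 5 were higher in BM 2nd over parental cells, beside 1.84% of all genes. These were Lum at 4.95, Dpt at 3.97, Dcn at 2.59, Col1a1 at 2.10 and Pdgfra at 2.05. The probes above background ranged from 0.47 to 2.59 for Dcn and from 0.19 to 2.05 for Pdgfra. Col1a1 was not above background in the parental line and was at least 3.76-fold higher when set against it. Lum and Dcn made up 6133 and 6174 of the BM 2nd sum, while Pdgfrb and Thy1 stayed below background. The study ascribes the raised lumican to the cancer cells. It reports that lumican shRNA lowered RNA, protein and secretion of lumican in BM 2nd cells, and that lumican also rose in bone-derived sub-lines of a human lung cancer line. Fewer cells of a type and less RNA per cell cannot be told apart in such bulk RNA, and the part of host cells in the values below was not tested.

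In the integrated stress response, kinases that sense misfolded protein in the endoplasmic reticulum, lack of amino acids, lack of heme or double-stranded RNA phosphorylate the translation factor eIF2alpha. General translation drops, whereas ATF4, whose messenger RNA carries short upstream reading frames, is translated more. ATF4 then switches on genes of amino acid synthesis and transport together with regulators such as CHOP and TRIB3. Much of the control of ATF4 is translational, so an array reads the output of the pathway through its targets more directly than through Atf4 itself.

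All 10 genes were above background on all 3 arrays. In BM 2nd cells, 7 of the 10 had a log2 ratio to parental cells below -1 and none was above 1, beside 1.53% of all 10565 genes compared that were lower and 1.84% that were higher. Because the set was chosen on this contrast, the count describes the genes and supports nothing by itself. The 7 were Trib3, Ppp1r15a, Ddit3, Chac1, Asns, Atf5 and Sesn2. Atf3, Atf4 and Cebpb had log2 ratios of -0.46, -0.42 and -0.35. The median of the 10 genes was -1.25, beside 0.0071 over all genes compared. In BM 1st cells, 2 of the 10, Trib3 and Ppp1r15a, were past the threshold below parental cells and none was above it, beside 1.80% of 10361 genes lower and 2.05% higher. The median of the 10 genes in that comparison was -0.39, beside -0.0081 over all genes. Between BM 2nd and BM 1st cells, 4 of the 10 were lower, Trib3, Chac1, Asns and Ddit3, and none was higher, beside 1.78% of 10537 genes lower and 3.02% higher, with a median of -0.59 beside -0.01. Each array enters 2 of these comparisons, so they are not independent of each other.

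**Figure D1:**
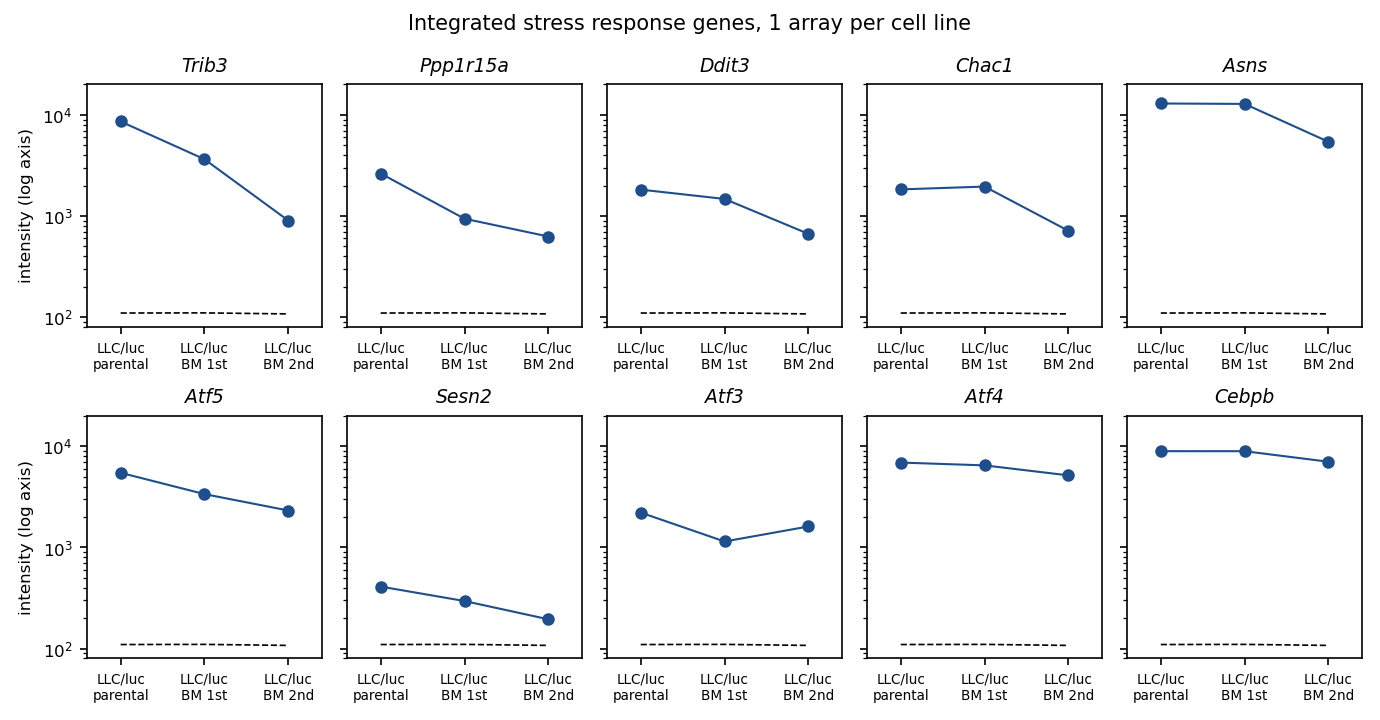
Intensity (vertical log axis) of the 10 genes by cell line, each point being 1 array, and the dashed line giving the background of the arrays. Trib3 shows the steepest course, with 8611, 3642 and 899.9 along the parental, BM 1st and BM 2nd lines, Asns and Chac1 are level between parental and BM 1st cells, and Atf4 and Cebpb differ least.

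The stress-induced pseudokinase Trib3, which is switched on by ATF4 and CHOP and in turn restrains them, had intensities of 8611 in the parental line, 3642 in the BM 1st line and 899.9 in the BM 2nd line on its brightest probe. The BM 2nd intensity was 9.57-fold lower than the parental one, a log2 ratio of -3.26 and the lowest of all 10565 genes compared when listed by the measured ratio. Both steps contributed, Trib3 being 2.36-fold lower in BM 1st against parental cells and 4.05-fold lower in BM 2nd against BM 1st cells. The other 2 Trib3 probes gave BM 2nd over parental log2 ratios of -3.04 and -3.14, close to that of the brightest. They read 1174 and 1459 in the parental line, 579 and 626 in the BM 1st line and 142 and 165 in the BM 2nd line.

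Ppp1r15a encodes GADD34, the stress-induced subunit that directs a phosphatase to eIF2alpha and so ends the response. Its intensities were 2630.1 in the parental line, 939.6 in the BM 1st line and 626 in the BM 2nd line. Most of the log2 difference was present after the first selection, with a log2 BM 1st over parental ratio of -1.48 and a BM 2nd over parental ratio of -2.07. By the BM 2nd over parental ratio it ranked 7 from the lowest of all genes, and it was read by 1 probe.

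Ddit3 encodes CHOP, a C/EBP transcription factor tied to cell death under lasting stress. It had 1823 in the parental line, 1474 in the BM 1st line and 665 in the BM 2nd line, 2.74-fold lower in BM 2nd compared with parental cells, and its other probe, with 752, 632 and 265, gave a log2 ratio of -1.51 beside -1.45. Chac1, a target of ATF4 that breaks down glutathione, had 1832, 1953 and 713 in the same order of arrays. Chac1 was thus slightly brighter in the BM 1st than in the parental line, and its log2 BM 2nd over parental ratio of -1.36 arose in the second step. Asns, the gene of asparagine synthetase, followed the same course, with intensities of 12978 in the parental line, 12849 in the BM 1st line and 5420.4 in the BM 2nd line. Its 3 probes gave BM 2nd over parental log2 ratios of -1.26, -1.50 and -1.20 and BM 1st over parental ratios of -0.01, 0.07 and 0.29. For these 3 genes the BM 2nd array was low and the other 2 arrays lay close together.

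Atf5, a relative of ATF4 with a similar translational control, had intensities of 5483 in the parental line, 3373 in the BM 1st line and 2321 in the BM 2nd line, and the log2 difference was divided between the steps, at -0.70 and -0.54. Sesn2 encodes sestrin 2, which holds back the growth kinase mTORC1, and lay nearer to background, with intensities of 410.3, 295 and 195. Its log2 BM 2nd over parental ratio of -1.08 was just past the threshold. A second Sesn2 probe, with 158, 115 and 109.7, gave -0.53 and the third was not above background on any array, so the call rests on 1 probe. With background subtracted Sesn2 was at -1.63. Averaged over the probes above background, Sesn2 was at -0.80 and not past the threshold, and with each array centred on its own probes above background 6 of the 10 genes remained past it, without Sesn2.

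**Figure D2:**
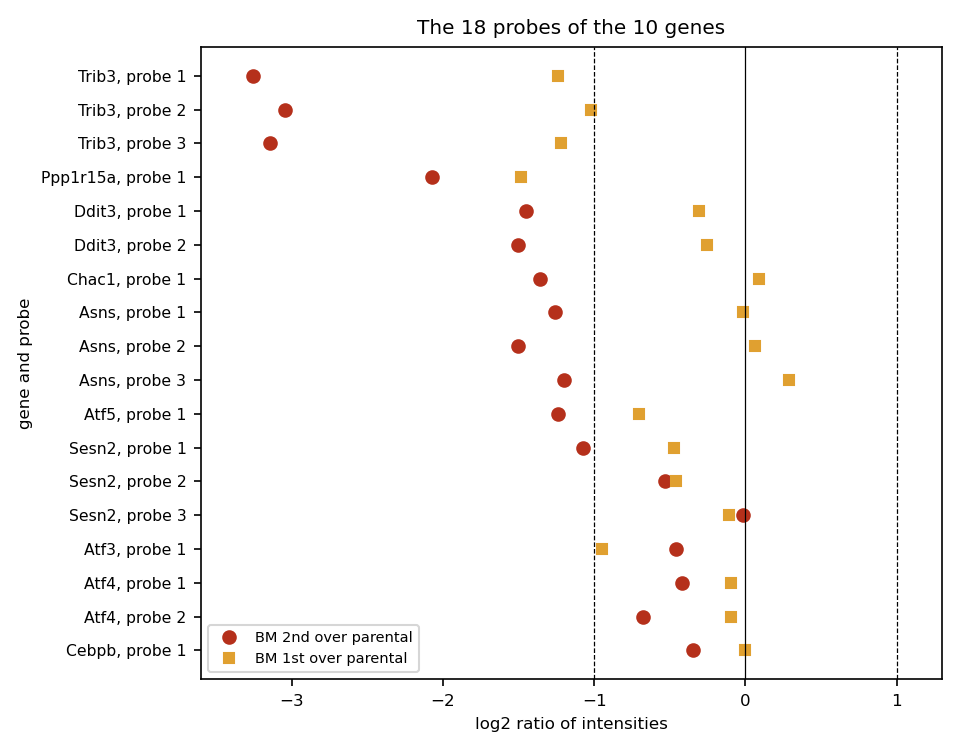
Log2 ratio of intensities (horizontal axis) for each of the 18 probes of the 10 genes (vertical axis), with BM 2nd over parental as red circles and BM 1st over parental as yellow squares, 1 array per cell line. Dashed lines mark -1 and 1; 12 of the 18 circles and 4 of the 18 squares lie left of -1, and the probes of Trib3, Ddit3 and Asns lie close together within each gene, whereas the 3 of Sesn2 spread out.

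The transcription factor genes at the centre of the response differed less. Atf4 had intensities of 6923 in the parental line, 6493 in the BM 1st line and 5172 in the BM 2nd line, and its 2 probes gave BM 2nd over parental log2 ratios of -0.42 and -0.68. Cebpb, whose product pairs with ATF4 on DNA, had 8975, 8969 and 7052. Both were lower in BM 2nd compared with parental cells without reaching the threshold, and they ranked 1167 and 1517 from the lowest of the 10565 genes. Atf3, a stress-induced bZIP factor, took another course, with 2214 in the parental line, 1146 in the BM 1st line and 1613 in the BM 2nd line. Its log2 BM 1st over parental ratio of -0.95 fell just short of the threshold, but at -1.01 with background subtracted it was past it, which made 3 of the 10 genes lower in BM 1st cells, and it was the only 1 of the 10 that was brighter in the BM 2nd than in the BM 1st line. Of the 10 genes, 8 were highest in the parental line, intermediate in BM 1st and lowest in BM 2nd, as were 17.3% of the 10915 genes above background on any array, and the exceptions were Atf3 and Chac1.

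**Figure D3:**
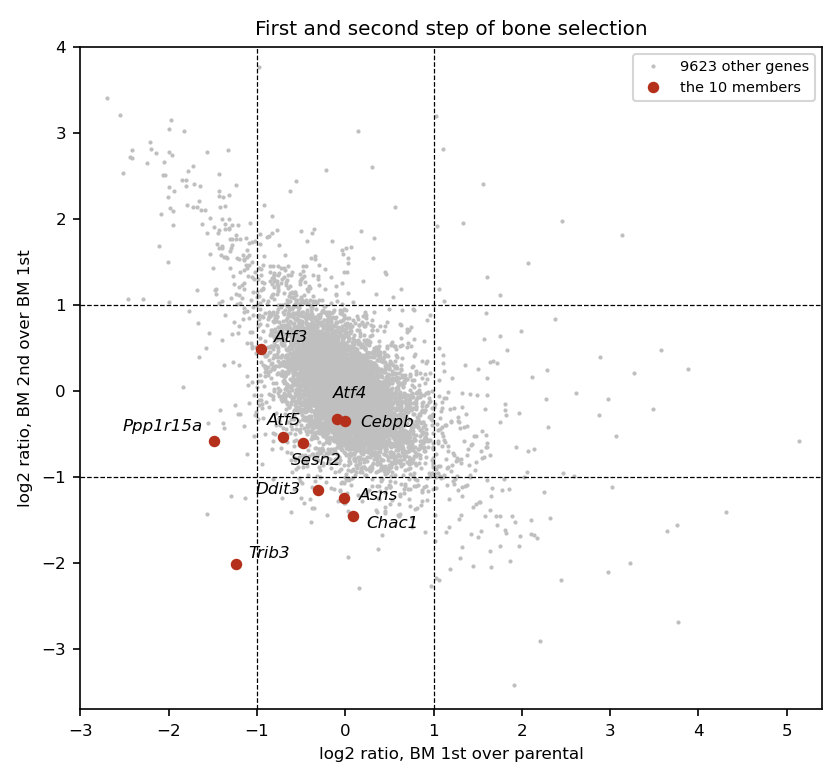
Log2 ratio of BM 1st over parental intensity (horizontal axis) and of BM 2nd over BM 1st intensity (vertical axis) for the 10 genes (red) and 9623 other genes (grey), 1 array per cell line. Both axes hold the BM 1st array, so they are not independent, and dashed lines mark 1 and -1. Trib3 is past -1 on both axes, Ppp1r15a only on the horizontal one, and Ddit3, Asns and Chac1 only on the vertical one.

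Lower past the threshold at both steps were 4 of all genes, Trib3, Chchd10, Cox6a2 and 5430416N02Rik, with Chchd10 not above background in BM 2nd cells. By the distance between the pairs of log2 ratios to parental cells, among the 8644 other genes above background on all 3 arrays, the remaining 9 stress response genes included, Cox6a2, a muscle-type subunit of cytochrome oxidase, was nearest to Trib3 with a distance of 0.75. It had intensities of 727 in the parental line, 297 in the BM 1st line and 127 in the BM 2nd line. 5430416N02Rik followed at 0.87 and Ppp1r15a at 1.21, and after them came Angptl6 at 1.37, Cyb5r1 at 1.38 and Leprotl1 at 1.39. Of the remaining stress response genes, Ddit3 was nearest at 2.03 and Cebpb farthest at 3.16. The likeness rests on 3 arrays and on differences of similar size, and it carries no p-value.

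The promoters of the 10 genes were searched for the binding sequence of ATF4 with C/EBP partners, TGATGNAA, and for the cyclic AMP response element TGACGTCA, on both strands. These letters cannot overlap as the same match. In the RefSeq windows of GRCm38.p6, from 250 bases before the start site to 50 after, TGATGNAA was found in 4 of the 10 genes, Trib3, Chac1, Asns and Atf3, and in 4.51% of all 27025 genes with a window. By window these were 4 of 11, Atf5 having 2 windows, beside 3.97% of all 32851. TGACGTCA was found in Ppp1r15a and in 2.03% of all genes, 1.79% of all windows. Shown are these 5 genes, as the sequences around the matches, with 250 bases before the start site and 30 from it on, 5′ to 3′ along the gene, and with the match in capitals. The windows are Trib3 at chr2:152344031-152344310 on the minus strand, Chac1 at chr2:119350992-119351271 on the plus strand, Asns at chr6:7693180-7693459 on the minus strand, Atf3 at chr1:191183304-191183583 on the minus strand and Ppp1r15a at chr7:45526239-45526518 on the minus strand.
Trib3: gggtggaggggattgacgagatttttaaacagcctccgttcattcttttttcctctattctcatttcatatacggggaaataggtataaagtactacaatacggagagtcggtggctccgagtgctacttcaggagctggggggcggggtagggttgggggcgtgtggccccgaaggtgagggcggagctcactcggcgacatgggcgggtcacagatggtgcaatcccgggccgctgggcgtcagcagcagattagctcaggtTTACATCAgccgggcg
Chac1: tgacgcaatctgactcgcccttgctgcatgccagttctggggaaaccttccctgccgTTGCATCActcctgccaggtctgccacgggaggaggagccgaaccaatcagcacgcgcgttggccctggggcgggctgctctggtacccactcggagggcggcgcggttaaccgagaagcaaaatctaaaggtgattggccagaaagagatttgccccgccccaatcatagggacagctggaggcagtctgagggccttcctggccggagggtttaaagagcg
Asns: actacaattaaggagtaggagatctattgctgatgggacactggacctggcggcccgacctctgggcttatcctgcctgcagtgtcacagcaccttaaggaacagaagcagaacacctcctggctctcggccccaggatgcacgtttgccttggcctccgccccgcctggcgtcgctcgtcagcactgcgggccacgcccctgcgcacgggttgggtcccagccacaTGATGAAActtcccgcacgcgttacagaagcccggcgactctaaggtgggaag
Atf3: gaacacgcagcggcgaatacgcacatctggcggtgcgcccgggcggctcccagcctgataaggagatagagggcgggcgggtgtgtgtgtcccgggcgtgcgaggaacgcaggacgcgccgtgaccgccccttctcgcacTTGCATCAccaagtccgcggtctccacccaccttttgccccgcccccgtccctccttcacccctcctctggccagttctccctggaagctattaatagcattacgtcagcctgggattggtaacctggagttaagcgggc
Ppp1r15a: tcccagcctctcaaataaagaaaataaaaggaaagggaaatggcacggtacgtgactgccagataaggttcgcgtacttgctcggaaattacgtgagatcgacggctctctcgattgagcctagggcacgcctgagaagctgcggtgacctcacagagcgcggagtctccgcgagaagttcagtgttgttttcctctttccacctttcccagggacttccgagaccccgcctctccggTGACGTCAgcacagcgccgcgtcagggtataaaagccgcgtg
In Chac1 and Atf3 the match read TGATGCAA on the opposite strand and started 193 and 110 bases before the start site. The Asns match, TGATGAAA, lay on the strand of the gene and started 23 bases before the start site, and that of Trib3, TGATGTAA, lay on the opposite strand inside the transcribed part. Of the 4 genes with TGATGNAA, 3 were past the threshold in BM 2nd over parental cells and Atf3 was not. Ddit3, Atf5 and Sesn2, which were past it, had neither of the 2 sequences in the window. A match is a description of the letters, and no binding was measured.

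Beyond the 10 genes, ATF4 drives enzymes and carriers that supply amino acids, and 4 further lists were read. Of these, 3 were drawn up as ATF4 targets. The other took the cytosolic aminoacyl-tRNA synthetases as a family, not only those under ATF4. Control of the listed genes by ATF4 was not measured. Of 60 genes compared in the 4 lists together, a grouping made after the values were seen, 13 were lower in BM 2nd compared with parental cells and none higher, beside 1.53% of all genes lower and 1.84% higher, and 51 had a ratio below 0, beside 49.0% of all genes. The same shares of all genes stand behind each list count in that comparison. Their median log2 ratio was -0.65. In BM 1st over parental cells the same lists held 1 lower and 3 higher genes, beside 1.80% and 2.05% of all genes, so the lower count was at the background share and the higher one rests on 3 genes, and the median was -0.0043. The lists were chosen with earlier results of these arrays known, so the counts are no independent support for the 10 genes.

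Of 9 enzymes of amino acid and one-carbon synthesis, 5 were lower in BM 2nd compared with parental cells and all 9 had a ratio below 0 (median -1.02). Cth, which makes cysteine, had intensities of 376 in the parental line, 284 in the BM 1st line and 119 in the BM 2nd line, a log2 BM 2nd over parental ratio of -1.66. It had 1 probe above background and lay near background in BM 2nd cells. Mthfd2, a mitochondrial folate enzyme, had 9837, 9813 and 3967 and a ratio of -1.31, and its other probe gave -1.61. The mitochondrial folate enzyme gene Aldh1l2 was at -1.30, but its 3 probes ranged from -1.30 to -0.19. Gpt2, a mitochondrial alanine aminotransferase, was at -1.26 and Shmt2, which makes glycine from serine in mitochondria, at -1.02. None of the 9 was past the threshold in BM 1st over parental cells, where ratios lay between -0.67 for Shmt2 and 0.41 for Gpt2, with Aldh1l2 at -0.53 and Mthfd2 at -0.0036.

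Of 19 cytosolic aminoacyl-tRNA synthetases, which load amino acids on tRNA, 5 were lower in BM 2nd cells, with none higher (median -0.48). The tryptophan enzyme gene Wars was at -1.80, with 2229 in the parental line, 1155 in the BM 1st line and 639 in the BM 2nd line, and its 4 probes ranged from -1.80 to -1.09. Sars, the serine enzyme gene, was at -1.32, Nars at -1.19, Lars at -1.11 and Mars1 at -1.07. The other probes of Sars and Lars above background gave -1.57 and -1.04. The other Mars1 probe gave -0.85 and was not past the threshold, and Nars was read by 1 probe. Only Qars and Hars of the 19 had ratios above 0, at 0.37 and 0.12. None of 8 amino acid transporters was past the threshold in BM 2nd over parental cells, although all 8 had ratios below 0 (median -0.59).

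Of 24 targets with roles in stress and cell death, 3 were lower in BM 2nd against parental cells and none higher (median -0.53). Fgf21, a secreted metabolic hormone, was at -1.50, read by 1 probe and near background in BM 2nd cells. The pro-apoptotic gene Bbc3 was at -1.42 and the growth arrest gene Gadd45a at -1.30. The 3 Bbc3 probes ranged from -1.42 to -0.47, and the 2 Gadd45a probes gave -1.30 and -1.27.

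In BM 1st over parental cells, 2 of the 24 stress and death targets were higher, Fgf21 and Nupr1, and 1 was lower, Txnip. Of all genes, 2.05% were higher and 1.80% lower there. The list had 9 ratios below 0, beside 50.9% of all genes, and a median of 0.10. Fgf21 had intensities of 332 in the parental line, 1251 in the BM 1st line and 117 in the BM 2nd line, where background was 107. It was 3.77-fold higher in BM 1st compared with parental cells and 10.7-fold lower in BM 2nd compared with BM 1st cells, on 1 probe. Nupr1, a small stress-induced nuclear protein, had 2022, 4104 and 1229 in the same order. Gadd45a had 3997, 7837 and 1627, and its BM 1st over parental ratio of 0.97 was not past the threshold. The cystine carrier gene Slc7a11 of the transporter list, which is also under the antioxidant factor NRF2, had 441, 2032 and 270.5, and its 4 probes above background gave BM 1st over parental log2 ratios from 0.61 to 2.20. On the probe read, these 4 genes were highest in BM 1st cells, where Trib3 and Ppp1r15a were already past the threshold below parental cells, and all 4 were lowest in BM 2nd cells. Txnip had a BM 1st over parental ratio of -1.05 and was not past the threshold in BM 2nd cells.

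**Figure D4:**
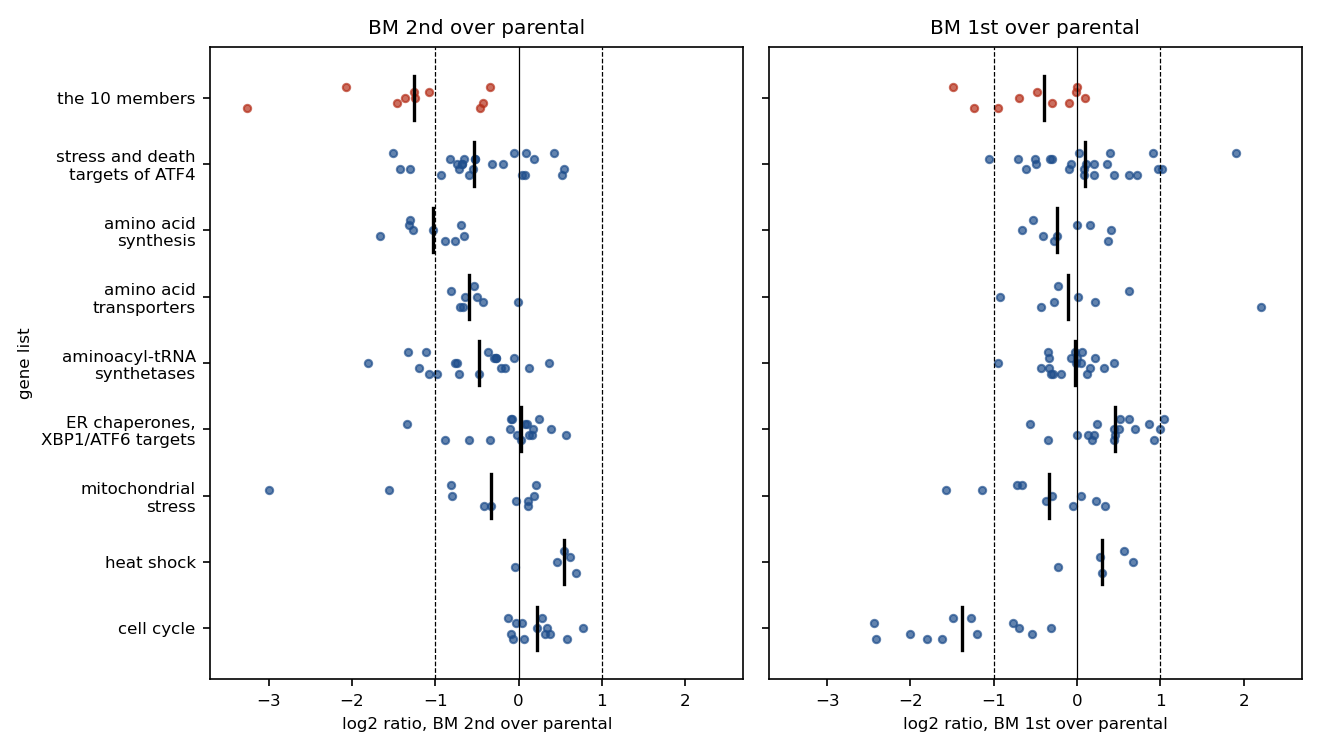
Log2 ratio of BM 2nd over parental (left) and BM 1st over parental intensity (right) for the 10 stress response genes (red) and for members of 8 other gene lists (blue), with a point for each gene compared and a single array behind each line. Medians are drawn as black bars, and dashed lines mark -1 and 1. On the left the medians of the 10 genes and of the amino acid synthesis list, -1.25 and -1.02, lie left of the line at -1, and on the right that of the cell cycle list does, at -1.38.

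The sensors and switches above ATF4 were read in part, since Eif2s1, the gene of eIF2alpha itself, had no probe. Ppp1r15a, which acts on eIF2alpha, was past the threshold in BM 2nd over parental cells, with a log2 ratio of -2.07. The other genes above ATF4 that could be read, given next, were not past it. The kinase genes Eif2ak1 and Eif2ak2 had log2 BM 2nd over parental ratios of 0.45 and 0.52, and Eif2ak3 and Eif2ak4, which encode PERK and GCN2, were not above background on any array. None of 7 subunits of eIF2 and eIF2B was past the threshold in any of the 3 comparisons, and on the probe read neither was any of a list of 5 genes, Ppp1r15b, the phosphatase subunit genes Ppp1ca, Ppp1cb and Ppp1cc, and Dnajc3, whose product inhibits eIF2alpha kinases. The BM 2nd over parental medians of these lists were -0.02 and 0.12. Among the 7 subunits, 4 had ratios below 0, and Eif2b3 and Eif2s2 were the lowest at -0.70 and -0.68. The 4 probes of Ppp1ca above background disagreed, with BM 2nd over BM 1st log2 ratios from -1.26 to 0.95. Ppp1r15b, the constitutive counterpart of Ppp1r15a, was at 0.12. The paralogs Trib1, Trib2 and Sesn1 had BM 2nd over parental ratios of -0.04, 0.05 and 0.25, against -3.26 for Trib3 and -1.08 for Sesn2. Cebpg, a partner of ATF4, was the only 1 of the 3 other C/EBP genes compared that was past the threshold, at -1.30, but its other probe above background gave -0.24. None of 15 other ATF and bZIP factors was past it in any comparison.

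The endoplasmic reticulum arm of the stress response was read from its own list. Of 17 chaperones and targets of XBP1 or ATF6, 1 was lower in BM 2nd against parental cells and none higher, with a median of 0.03. The lower gene was Ern1, the sensor kinase IRE1, at -1.34, with 3 probes from -1.34 to -0.39. In BM 1st over parental cells the median of this list was 0.45, and 3 of 18 genes had ratios below 0, beside 50.9% of all genes. Only Pdia4, a disulfide isomerase, was past the threshold, at 1.05, beside 2.05% of all genes higher. Between BM 2nd and BM 1st cells 16 of the 18 had ratios below 0, beside 51.3% of all genes. The median there was -0.53, beside -0.59 for the 10 stress response genes. In that comparison 1 of the 18, Sdf2l1, was lower at -1.27, beside 1.78% of all genes. The cell cycle list also set the BM 1st array apart, with 8 of 12 genes lower in BM 1st compared with parental cells (median -1.38), and 8 of 13 higher in BM 2nd compared with BM 1st cells, beside 1.80% and 3.02% of all genes. In BM 2nd over parental cells none of 13 cell cycle genes was past the threshold (median 0.22). The part of growth state in the BM 1st values was not tested, and with 1 culture of each line it cannot be told apart from the line.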

How the data were processed

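Total RNA of parental, BM 1st and BM 2nd LLC/luc cells was hybridised to 1 array each. The authors deposited linear intensities for 45281 probes. The submitters' processing notes name GenomeStudio 2011.1, and how normalization and background were set is not stated there. Sorted intensities of the 3 arrays differed by at most 0.274, so they had been quantile normalized, and the lowest value of 60.2 shows that background was not subtracted. Gene symbols came from the platform annotation and were brought up to date with RefSeq (GRCm38.p6): 34885 probes had 1 gene, 18 several and 10378 none there. Where a gene had several probes, that of highest mean log2 intensity stood for it. Log2 ratios were taken in pandas 2.3.3 with numpy 2.4.6 under Python 3.11.15, and matplotlib 3.10.9 drew the plots. Background was the 95th percentile of the receptor probes, and the threshold was a log2 ratio of 1, as in the study's methods. Counting of genes past the threshold was checked on simulated arrays. The changes put in were larger than the threshold, in genes well above background, with noise taken from the receptor probes. Their recovery was thus nearly fixed in advance, and the check covers the counting step alone, not differences between cultures. The median SD between probes of a gene was 0.14 in BM 2nd over parental log2 ratios.

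The members and gene lists were chosen with earlier results of these data known. Named were all 10 members, the list genes past the threshold (up to 4 per list, or all where 5 or fewer, in BM 2nd over parental cells and up to 2 in the other comparisons) and the 5 genes nearest to Trib3. Other genes were named after their values were seen. With 1 array per line no test across replicates could be made, and precision is limited by their number. Alternatives varied the background filter and level, background subtraction, centring, choice of probe and threshold.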

Additional observations from a re-analysis of the deposited data

How the results depend on the processing

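No member changed the sign of a ratio past the threshold under any of the alternatives tried, and no member was past the threshold above 0 in any of them. At a 3-fold threshold the members lower numbered 2 in BM 2nd over parental, 0 in BM 1st over parental and 1 in BM 2nd over BM 1st cells. At 1.5-fold there were 4 in BM 1st over parental cells. With the background subtracted the members' median log2 ratio of BM 2nd over BM 1st was -0.82, and with each array centred on its own probes above background, an alternative added after the data were seen, it was -0.45. That centring moved BM 2nd over parental ratios by 0.12 and BM 2nd over BM 1st ratios by 0.15. Of genes past the threshold it left 266 higher and 112 lower in BM 2nd over parental cells, 70.4% higher in place of 54.5%, and 446 higher and 121 lower in BM 2nd over BM 1st cells, 78.7% in place of 62.8%.

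Counts over all genes, lower and higher, changed mainly by construction. With the background subtracted they were 508 and 616 in BM 2nd over parental, 567 and 602 in BM 1st over parental, and 619 and 806 in BM 2nd over BM 1st cells. At 1.5-fold they were 648 and 715, 661 and 674, and 751 and 902, and at 3-fold 27 and 69, 51 and 82, and 37 and 116, in place of 162 and 194, 186 and 212, and 188 and 318 at 2-fold. Of 339 values recomputed under the alternatives, 295 stayed within the limits set for them, the SD between probes of a gene or 1.5 times a count. Part of this was also by construction. All 10 members were above background on all 3 arrays, and their values were identical under every background filter and level tried. Averaging over probes could not move a gene read by 1 probe. The share that stayed is therefore no measure of how firm the results are. No paired analysis was possible because each cell line has 1 array.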

Other observations

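In the list of mitochondrial stress genes, 2 of 11 were lower in BM 2nd against parental cells and none higher (median log2 ratio -0.33), beside 1.53% and 1.84% of all genes. Chchd10, a protein of the space between the mitochondrial membranes, had intensities of 846 in the parental line, 285 in the BM 1st line and 106 in the BM 2nd line, where it was not above background. It was at least 7.88-fold lower in BM 2nd compared with parental cells, set against the background of the BM 2nd array. The mitochondrial protease gene Lonp1 had 3249, 1468 and 1110.04 and a log2 BM 2nd over parental ratio of -1.55, with most of the difference present in BM 1st cells at -1.15. Both genes were read by 1 probe. The mitochondrial chaperonin genes Hspd1 and Hspe1 had BM 2nd over parental ratios of 0.11 and -0.03. Hspa9, another gene of the list, was at -0.79, with its other probe at -1.02. Of the 11 genes, 7 had ratios below 0, beside 49.0% of all genes.

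On the probe read, none of 5 heat shock genes above background was past the threshold in any comparison. In BM 2nd over parental cells 4 of them had ratios above 0, with a median of 0.54, and the Hsp70 family gene Hspa8 was the highest at 0.69, with another probe at 1.14.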
